A study of Mus musculus with 6 samples.

Results

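The pluripotency factors described here are 10 genes, Pou5f1, Lin28a, Lin28b, Utf1, Nanog, Sox2, Klf4, Zfp42, Dppa3 and Prdm14, chosen by gene symbol among the 31918 genes of the deposited expression table. Each symbol matched a row, and 7 of the 10 genes reached the expression needed for testing, 1 FPKM or more in 3 or more libraries. FPKM is the number of sequenced fragments scaled to transcript length and library size, so levels can be compared between genes. Nanog, Sox2 and Prdm14 lay below that level.

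RNA was sequenced from testis spermatogonia of mouse pups at postnatal day 8, all of the Id4-eGfp (LT11) genotype, in which green fluorescent protein reports on the inhibitor of differentiation gene Id4. The comparison asks how spermatogonia with a high level of Id4, with bright fluorescence, differ from those with a low level, with dim fluorescence. There were 3 libraries of each, called Bright 1 to 3 and Dim 1 to 3, made from cDNA primed with oligo d(T). The transgene sets the groups, every animal carries it, and no label states whether the libraries of a group derive from separate animals. Any p-value here accordingly reflects the spread among these 6 libraries alone, which may be technical.

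In the early embryo and in embryonic stem cells, POU5F1, SOX2 and NANOG bind many of the same genes and hold cells in a state from which all tissues can form. KLF4 and ZFP42 belong to the zinc finger factors around that core, UTF1 is a chromatin protein, and the LIN28 proteins bind RNA and block maturation of the let-7 microRNAs. Some of these genes stay active or are switched on again in the male germ line. POU5F1, LIN28A and UTF1 are used as markers of undifferentiated spermatogonia in the mouse, whereas NANOG, PRDM14 and DPPA3 are best known from primordial germ cells and the early embryo.

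The 6 libraries were deep enough to read most of these genes. The steps between low FPKM values put the libraries at roughly 22000000 to 35600000 fragments, and 12954 to 14209 genes reached 1 FPKM in each. Germ cell markers (8 genes) summed to 1088 to 1353 FPKM in every library. Bright 3 stood apart in markers of somatic testis cells. The sum of 7 Leydig cell markers was 1760 FPKM there and 1.97 to 3.39 FPKM in the other 5 libraries, and the sum of 10 Sertoli cell markers was 520.2 FPKM there and 11.1 to 25.4 FPKM elsewhere. Bright 3 had the lowest germ cell marker sum, and it was the lowest Bright library for 7 of the 10 pluripotency factors. In these bulk samples, fewer cells of a type and less RNA per cell cannot be told apart.

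The 10 genes did not move as a block. Pou5f1 and Zfp42 rose in Bright, Lin28b and Dppa3 rose in Dim, and Lin28a, Utf1 and Klf4 did not pass the test. Of the 7 genes tested, 2 were thus called with the higher level in Bright and 2 with the higher level in Dim at an adjusted p under 0.05 in limma. Over all 13416 genes tested, 22.5% were called, with Bright higher for 12.0% and Dim higher for 10.5%. Among these 7 genes, the 4 that were called had Bright and Dim libraries that did not overlap, as did 41.1% of all genes tested, 20.4% with Bright above Dim and 20.8% with Dim above Bright. The 4 calls held when any library was left out, Bright 3 included. Fold changes below are Bright minus Dim on log2(FPKM + 1), which understates the change of low genes, and adjusted p-values come from limma over all genes tested.

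**Figure D1:**
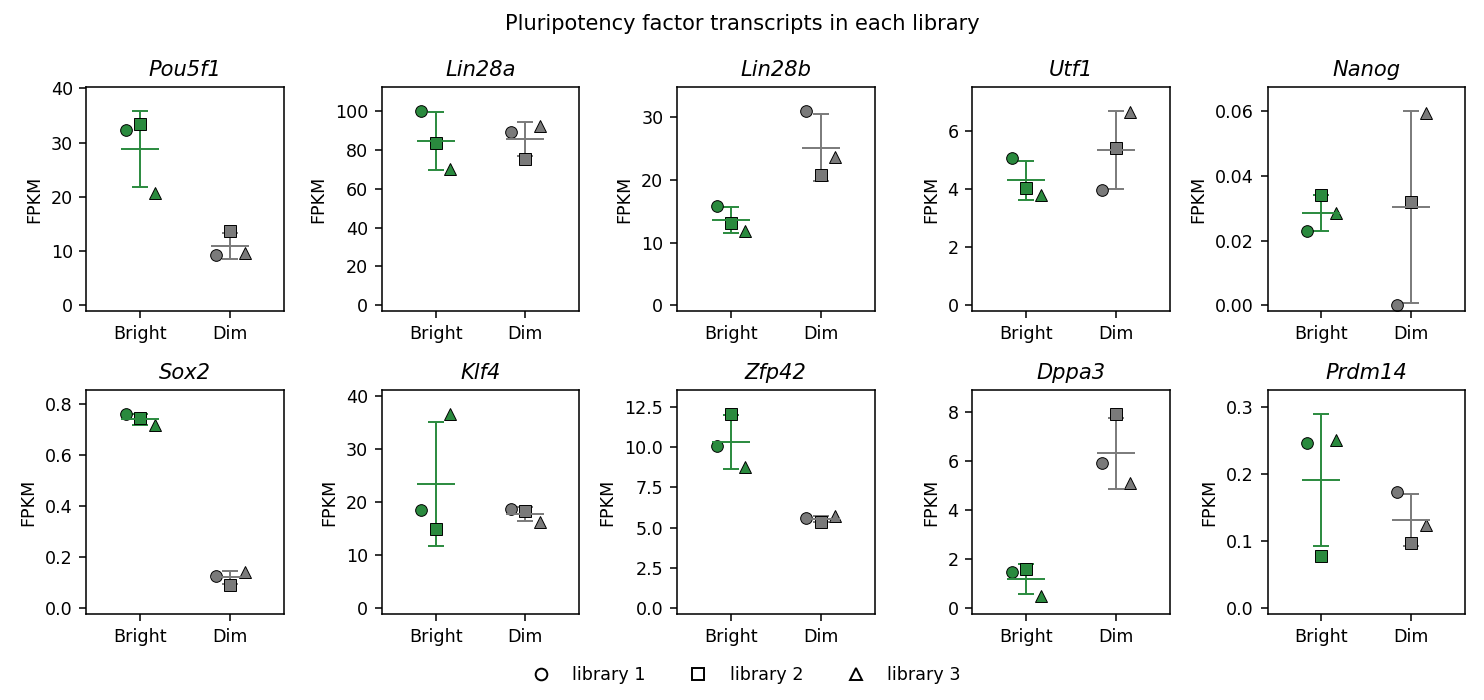
FPKM of the 10 pluripotency factors in each library (vertical axes, linear and scaled to each gene), with Bright in green and Dim in grey. Symbols mark the library number, horizontal lines the mean and error bars the SD of 3 libraries. Pou5f1, Zfp42 and Sox2 lie higher in every Bright library, Lin28b and Dppa3 in every Dim library, and the Klf4 value of 36.6 FPKM is Bright 3.

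The order of the levels differed between the groups. Lin28a was the highest of the 10 genes in each group. In Bright it was followed by Pou5f1, Klf4, Lin28b and Zfp42, and each neighbouring pair among these 4 overlapped between libraries. Utf1, Dppa3 and Sox2 came next, with no overlap between neighbours from Zfp42 down to Dppa3. In Dim, Lin28a was followed by Lin28b, Klf4 and Pou5f1, with no overlap between neighbours, and then by Dppa3, Zfp42 and Utf1, whose libraries overlapped. Pou5f1 was thus the second of the 10 genes in Bright and the fourth in Dim. Sox2, Prdm14 and Nanog were the lowest in each group.

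Pou5f1 encodes OCT4, the POU-domain factor at the centre of the pluripotency network. The gene (ENSMUSG00000024406) lies on GRCm38 chromosome 17, 35506018 to 35510772, on the plus strand. It measured 32.3, 33.5 and 20.8 FPKM in the Bright libraries 1 to 3, against 9.36, 13.7 and 9.74 FPKM in the Dim libraries 1 to 3. Every Bright library was above every Dim library, with Bright 3 the lowest of its group. The means were 28.9 ± 7.03 FPKM in Bright and 10.9 ± 2.38 FPKM in Dim (SD, n = 3 each), a ratio of 2.64. The log2 fold change was 1.31 ± 0.22 (SE), with a 95% interval from 0.82 to 1.81 and an adjusted p of 0.00376. Without Bright 3 it was 1.53, with an adjusted p of 0.00467. In the authors' deposited table of Bright over Dim, the log2 ratio for Pou5f1 was 1.33 with a q-value of 0.000921. An antisense gene that overlaps Pou5f1, Gm19553, measured 1.17 to 3.45 FPKM over the 6 libraries, and without a stated strand its reads and those of Pou5f1 cannot be told apart.

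Zfp42 encodes REX1, a zinc finger protein of the YY1 family and a classic marker of embryonic stem cells. It (ENSMUSG00000051176) is annotated in the deposited table on the minus strand of chromosome 8, 43295068 to 43307009. Bright 1, 2 and 3 measured 10.1, 12.1 and 8.76 FPKM, and Dim 1, 2 and 3 measured 5.58, 5.33 and 5.72 FPKM. The groups did not overlap, and the Dim libraries lay close together. The means were 10.3 ± 1.66 FPKM in Bright and 5.54 ± 0.200 FPKM in Dim (SD, n = 3 each), a ratio of 1.86. The log2 fold change was 0.78 ± 0.15 (SE), with a 95% interval from 0.43 to 1.13 and an adjusted p of 0.00812. The authors' deposited table gave Zfp42 a log2 ratio of 0.89 with a q-value of 0.0525. GENCODE M21 lists a processed pseudogene, Zfp42-ps1, that has no row in the table, so how reads shared with it were counted is not known.

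The promoters of the 2 factors that rose in Bright are shown to compare which short elements they hold. They run from 250 bases before to 50 bases after the annotated start, from RefSeq on GRCm38.p6, at chr17:35505782-35506081 on the plus strand for Pou5f1 and at chr8:43306960-43307259 on the minus strand for Zfp42. Capitals mark the octamer core ATGCAAA, which POU factors bind, and the GC box GGGCGG, which SP and KLF factors bind, on either strand.
Pou5f1: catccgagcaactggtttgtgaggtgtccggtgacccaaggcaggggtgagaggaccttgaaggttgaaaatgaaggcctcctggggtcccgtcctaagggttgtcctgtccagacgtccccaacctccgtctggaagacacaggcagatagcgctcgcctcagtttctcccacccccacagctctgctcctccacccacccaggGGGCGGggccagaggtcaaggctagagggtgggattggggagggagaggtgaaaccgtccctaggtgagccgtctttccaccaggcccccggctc
Zfp42: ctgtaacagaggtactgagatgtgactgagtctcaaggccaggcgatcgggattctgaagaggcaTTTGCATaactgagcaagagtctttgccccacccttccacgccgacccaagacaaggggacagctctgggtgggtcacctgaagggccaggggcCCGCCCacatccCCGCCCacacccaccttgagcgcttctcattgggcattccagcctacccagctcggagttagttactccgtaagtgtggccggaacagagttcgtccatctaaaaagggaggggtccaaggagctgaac
The Zfp42 promoter held 1 octamer core, on the opposite strand at position -185 from the start, and 2 GC boxes at positions -91 and -79. The octamer core was present in 4.63% of 32851 promoters of this length and in none of the promoters searched for the other tested factors. The Pou5f1 promoter held 1 GC box at position -45, an element found in 35.7% of promoters, and no octamer core. Neither of these promoters held the SOX core AACAAT, present in 10.7% of all promoters, or the letters TATAAA, present in 13.6%. RefSeq lists a second Pou5f1 start, whose window at chr17:35508557-35508856 held 1 SOX core at position -159. The E-box CANNTG, which is present in 72.3% of promoters, occurred at 1 position in the first Pou5f1 window and at 2 in Zfp42, where the match at -187 overlapped the octamer core. Promoters were found for 6 of the 7 tested factors. The GC box numbered 4 in Klf4, 4 in Utf1 and 1 in Lin28a, and the Lin28b window held no element searched for but the E-box, at 2 positions.

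Sox2, the high-mobility-group factor that pairs with OCT4 on DNA in embryonic stem cells, was low in all libraries but separated the groups. The gene (ENSMUSG00000074637) lies on GRCm38 chromosome 3, 34650405 to 34652461, within the long noncoding gene Sox2ot on the same strand. It measured 0.760, 0.743 and 0.717 FPKM in the Bright libraries 1 to 3, against 0.129, 0.0929 and 0.144 FPKM in the Dim libraries 1 to 3. All Bright libraries were above all Dim libraries, and the spread within each group was small. The means were 0.740 ± 0.0215 FPKM in Bright and 0.122 ± 0.0261 FPKM in Dim (SD, n = 3 each), a ratio of 6.07. At the approximate depths this corresponds to about 34 to 52 fragments in the Bright libraries and 6 to 10 in the Dim libraries. Sox2ot measured 0.0610 to 0.121 FPKM in Bright and 0.0689 to 0.0871 FPKM in Dim, which overlapped.

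Sox2 was not part of the main test because no library reached 1 FPKM. The exact two-sided permutation test over the 6 libraries gave p = 0.1, the smallest that 3 against 3 libraries allow. In a limma fit with no filter on low values, the Sox2 log2 fold change was 0.63 ± 0.08 (SE) with an adjusted p of 0.00856, where 9.10% of all genes were called and 5.18% were called higher in Bright. Without Dim 2 that adjusted p was 0.0555, and without each of the other 5 libraries it was between 0.0167 and 0.0461. With a filter of 0.1 FPKM, chosen after the data had been seen, the adjusted p was 0.0034, where 8.50% of genes were called higher in Bright. The authors' deposited table gave Sox2 a log2 ratio of 2.58 with a q-value of 0.0903.

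Nanog, the homeobox member of the embryonic core, was close to the limit of detection. The gene (ENSMUSG00000012396; GRCm38 chromosome 6, 122707489 to 122714633) measured 0.0231, 0.0341 and 0.0285 FPKM in Bright 1, 2 and 3. It was listed at 0 in Dim 1 and at 0.0320 and 0.0594 FPKM in Dim 2 and 3. The groups overlapped, and these values correspond to about 0 to 4 fragments per library, so no difference was detectable at this depth (exact two-sided permutation p = 0.9). GENCODE M21 lists the processed pseudogenes Nanog-ps1 and Nanog-ps2, which have no rows of their own in the table.

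Klf4, a Kruppel-like zinc finger factor that takes part in reprogramming to pluripotency, did not pass the test. The gene (ENSMUSG00000003032) lies on the minus strand of GRCm38 chromosome 4, 55527143 to 55532466. It measured 18.5, 15.0 and 36.6 FPKM in the Bright libraries 1 to 3, against 18.7, 18.3 and 16.3 FPKM in the Dim libraries 1 to 3. Bright 3 was far above the other 5 libraries, whose Bright and Dim values overlapped. The means were 23.4 ± 11.6 FPKM in Bright and 17.7 ± 1.31 FPKM in Dim (SD, n = 3 each), with a log2 fold change of 0.28 ± 0.29 (SE), a 95% interval from -0.39 to 0.95 and an adjusted p of 0.535. Without Bright 3 the log2 fold change was -0.08, with an adjusted p of 0.743. The authors' deposited table gave Klf4 a log2 ratio of 0.34 with a q-value of 0.336.

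Somatic cell markers moved with the Klf4 value of Bright 3. Markers of peritubular myoid cells (6 genes) summed to 82.9 FPKM in Bright 3 and 3.77 to 5.96 FPKM elsewhere, and stromal markers (6 genes) to 202.1 and 24.7 to 36.2 FPKM. Endothelial markers (6 genes) summed to 22.8 FPKM in Bright 3, to 8.60 and 7.02 FPKM in Bright 1 and 2, and to 2.89 to 3.13 FPKM in Dim. Macrophage markers (7 genes) summed to 141.3 FPKM in Bright 3 and to 3.08 to 55.3 FPKM elsewhere, with Dim 1 at 48.4 and Dim 2 at 55.3 FPKM. All 7 Leydig, 6 myoid, 6 endothelial and 7 macrophage markers were highest in Bright 3, as were 9 of 10 Sertoli and 5 of 6 stromal markers. No marker was at 0 in all 6 libraries. Their part in the Klf4 value was not tested.

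Some markers also separated the groups beyond Bright 3. All 4 endothelial markers tested were called up in Bright, as were 12.0% of all genes tested. Kdr, Tek and Cdh5 reached 1 FPKM only in Bright, so they entered the test through the group where they were higher. With no filter on low values, 1 of the 6 endothelial markers was called up in Bright, where 5.18% of all genes were. That marker was Kdr (adjusted p 0.0115). Kdr, a VEGF receptor, measured 2.35, 1.69 and 3.68 FPKM in Bright and 0.301, 0.237 and 0.315 FPKM in Dim (adjusted p 0.00197, and 0.0044 without Bright 3), and Tek, the angiopoietin receptor, passed at 0.019 and at 0.0239 without Bright 3. Cdh5 passed at 0.0443 but not without Bright 1, Dim 1, Dim 2 or Dim 3 (0.0515, 0.118, 0.125 and 0.127), and Pecam1 at 0.0487 but not without Bright 1, Bright 3, Dim 1, Dim 2 or Dim 3 (0.0649, 0.0532, 0.109, 0.098 and 0.0995). Of 5 stromal markers tested, Pdgfra was called up in Bright (8.72 ± 4.21 against 1.31 ± 0.189 FPKM, SD, n = 3 each; adjusted p 0.00157), also without Bright 3 (0.00186). Of 8 germ cell markers, 3 were called up in Bright and 1, Kit, up in Dim. Gfra1, the GDNF co-receptor, measured 83.3 ± 5.85 FPKM in Bright and 4.98 ± 2.03 FPKM in Dim (SD, n = 3 each; adjusted p 4.66e-05). Zbtb16, which encodes PLZF, measured 80.2 ± 18.1 and 41.8 ± 8.83 FPKM (adjusted p 0.015), and Sall4 measured 85.9 ± 4.41 and 50.6 ± 7.34 FPKM (adjusted p 0.00673). Among Sertoli, Leydig, myoid and macrophage markers, 7 of 10, 1 of 7, 2 of 6 and 7 of 7 were tested. Markers that reached 1 FPKM in Bright 3 alone, such as Insl3, were not tested. No tested marker of these lists was called or had an unadjusted p under 0.05 in limma with all libraries. Without Bright 3, 1 Sertoli marker was called up in Dim, and with the replicate block 1 was called up in Bright. The part of these markers in the values of the pluripotency factors was not tested.

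**Figure D2:**
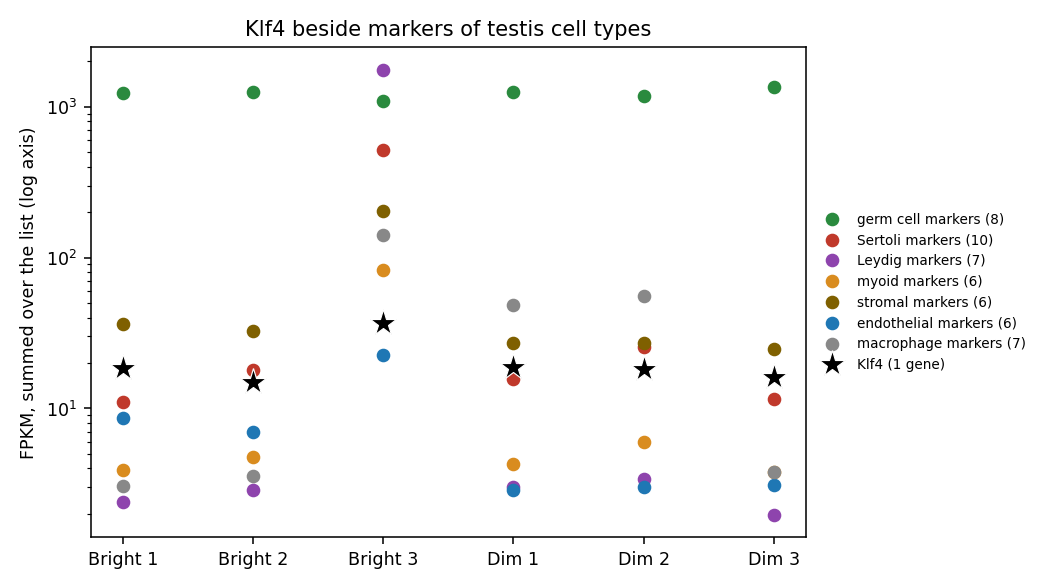
Summed FPKM of marker lists for testis cell types (coloured points, with the number of genes in brackets) and FPKM of Klf4 (black stars) in each library, on a log vertical axis. Germ cell markers stay between 1088 and 1353 FPKM. In Bright 3, Klf4 (36.6 FPKM) is highest together with the 6 somatic lists, with Leydig markers at 1760 FPKM.

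The 5 genes whose log2(FPKM + 1) followed that of Klf4 most closely over the 6 libraries, among 9029 named protein-coding genes with a mean of at least 5 FPKM, were Pmp22, Mxra8, Bgn, Nxf3 and Cgnl1. Pearson's r was 0.981 to 0.992. Klf4 and each of the 5 genes were highest in Bright 3, and 4 of the 5 reached the mean of 5 FPKM only through that library. Bgn, which encodes the extracellular matrix proteoglycan biglycan, measured 28.6 FPKM there and 0.911 to 2.19 FPKM elsewhere. These correlations describe 6 libraries that share their depth and their cell mixture across genes.

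Lin28a and Lin28b encode RNA-binding proteins with a cold shock domain and zinc knuckles that bind let-7 precursors. Mature let-7 in turn can repress the Lin28 messenger RNAs through matching sites in their 3′ UTRs. The let-7 sequences and the matching UTR segments are shown for these genes, and their part in the levels was not tested. Capitals mark the seed of the microRNA (bases 2 to 8) and, in the UTR segments, the bases that pair with it.
mmu-let-7a-5p: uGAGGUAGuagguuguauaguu
mmu-let-7d-5p: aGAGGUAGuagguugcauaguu
mmu-let-7g-5p: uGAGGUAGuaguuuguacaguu
Lin28a site 1: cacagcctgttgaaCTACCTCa
Lin28a site 2: agatcgccacaaacCTACCTCa
Lin28b site 1: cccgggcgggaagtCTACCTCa
Lin28b site 2: atacttgttagtaaCTACCTCt
Lin28b site 3: tttacagcacatggCTACCTCc
Lin28b site 4: aatgatggcaccgaCTACCTCt
The 3 microRNAs share the seed GAGGUAG and are from RefSeq on GRCm38.p6, with let-7a-5p at chr13:48538239-48538260 on the minus strand. The Lin28a segments lie at chr4:134005189-134005210 and chr4:134004551-134004572. The Lin28b segments lie at chr10:45381022-45381043, chr10:45378648-45378669, chr10:45378476-45378497 and chr10:45377060-45377081, all in the 3′ UTRs of GENCODE M21 on the minus strand of GRCm38. The Lin28a UTR of 2775 bases held 2 seed matches, and 14.7% of 2336 UTRs of similar length held at least 1. The Lin28b UTR of 4445 bases held 4, and 24.1% of 1201 UTRs of similar length held at least 1. The UTRs of the other 8 factors held none. In Lin28a sites 1 and 2 and Lin28b site 1 the match was followed by an A, and in Lin28b sites 2 to 4 by another base. Mature let-7 RNAs were not measured by these libraries.

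Lin28a was the most abundant of the 10 factors and did not differ detectably between the groups. The gene (ENSMUSG00000050966) lies on the minus strand of GRCm38 chromosome 4, 134003330 to 134018841. It measured 100.1, 83.6 and 70.3 FPKM in the Bright libraries 1 to 3, against 88.9, 75.3 and 92.1 FPKM in the Dim libraries 1 to 3. The groups overlapped, with the highest and the lowest value both in Bright. The means were 84.7 ± 14.9 FPKM in Bright and 85.4 ± 8.90 FPKM in Dim (SD, n = 3 each), near the 95.0 percentile of protein-coding genes. The log2 fold change was -0.02 ± 0.17 (SE), with a 95% interval from -0.40 to 0.36 and an adjusted p of 0.939, and its sign changed with the scaling of the libraries. The authors' deposited table gave Lin28a a log2 ratio of 0.01 with a q-value of 0.988. The overlapping antisense gene Gm13061 measured 0.514 to 1.14 FPKM.

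Lin28b rose in Dim. The gene (ENSMUSG00000063804) is annotated in the deposited table on the minus strand of chromosome 10, 45376620 to 45470201. It measured 15.8, 13.1 and 11.9 FPKM in the Bright libraries 1 to 3, against 31.0, 20.7 and 23.6 FPKM in the Dim libraries 1 to 3. All Dim libraries were above all Bright libraries. The means were 13.6 ± 2.01 FPKM in Bright and 25.1 ± 5.31 FPKM in Dim (SD, n = 3 each), with Dim over Bright at 1.85. The log2 fold change was -0.83 ± 0.18 (SE), with a 95% interval from -1.24 to -0.42 and an adjusted p of 0.0126, and it was 0.0492 when the libraries were scaled to the same sum. Without Bright 3 the adjusted p was 0.0456. The authors' deposited table gave Lin28b a log2 ratio of -0.78 with a q-value of 0.00166.

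The ratio of the pair separated the groups. Lin28a over Lin28b FPKM was 6.34, 6.36 and 5.93 in the Bright libraries 1 to 3, against 2.87, 3.64 and 3.89 in the Dim libraries 1 to 3. The groups did not overlap, with means of 6.21 ± 0.241 and 3.47 ± 0.535 (SD, n = 3 each), and the exact two-sided permutation test gave p = 0.1, the smallest it can give here. The summed FPKM of the pair overlapped between the groups, at 98.3 ± 16.9 in Bright and 110.5 ± 12.7 in Dim (SD, n = 3 each; exact two-sided permutation p = 0.5). Because each value is a ratio within a library, scaling a whole library does not change the first comparison.

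**Figure D3:**
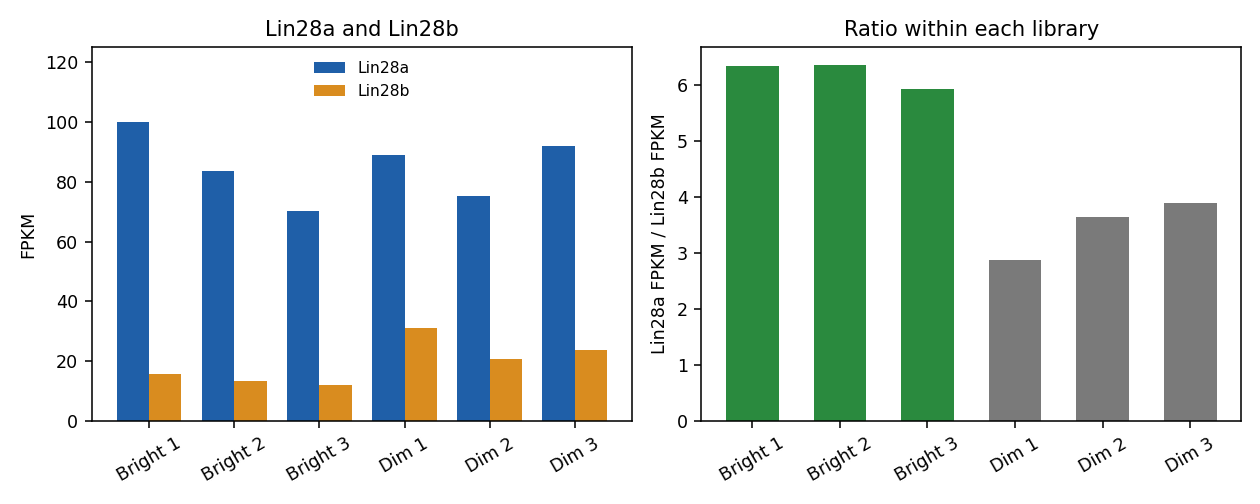
Left, FPKM of Lin28a (blue) and Lin28b (orange) in each library, and right, the ratio of Lin28a to Lin28b FPKM in the same libraries (green, Bright; grey, Dim). Lin28a overlaps between the groups, Lin28b is 11.9 to 15.8 FPKM in Bright and 20.7 to 31.0 FPKM in Dim, and the ratio is 5.93 to 6.36 in Bright and 2.87 to 3.89 in Dim.

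The genes most like Lin28a over the 6 libraries, by the same measure as for Klf4, included Mettl8, Zfp239, Pabpc1 and Hnrnpl, with Pearson's r of 0.973 to 0.986. Pabpc1 encodes the cytoplasmic poly(A)-binding protein and measured 609 FPKM in Bright 1 and 453 FPKM in Bright 3, its highest and lowest values, which is also where Lin28a was highest and lowest.

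Dppa3 encodes STELLA, a small protein known from primordial germ cells, oocytes and the zygote, where it protects DNA methylation of the maternal genome. It showed the largest fold change of the 7 tested factors. The gene (ENSMUSG00000046323) lies on the plus strand of GRCm38 chromosome 6, 122626410 to 122630272. It measured 1.48, 1.62 and 0.511 FPKM in the Bright libraries 1 to 3, against 5.95, 7.94 and 5.12 FPKM in the Dim libraries 1 to 3. Every Dim library was above every Bright library, with Bright 3 the lowest of all. The means were 1.20 ± 0.605 FPKM in Bright and 6.34 ± 1.45 FPKM in Dim (SD, n = 3 each), with Dim over Bright at 5.26. The log2 fold change was -1.76 ± 0.25 (SE), with a 95% interval from -2.32 to -1.20 and an adjusted p of 0.00184, and it was -1.51 without Bright 3. The values correspond to about 15 to 40 fragments in Bright and 132 to 210 in Dim. The authors' deposited table gave Dppa3 a log2 ratio of -2.40 with a q-value of 0.00462. GENCODE M21 lists a transcribed processed pseudogene, Dppa3-ps, with no row in the table, so reads it may share with Dppa3 leave the level uncertain.

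Utf1, a chromatin-bound factor of embryonic stem cells that is also found in undifferentiated spermatogonia, did not pass the test. The gene (ENSMUSG00000047751; GRCm38 chromosome 7, 139943789 to 139945112) measured 5.08, 4.03 and 3.79 FPKM in the Bright libraries 1 to 3, against 3.99, 5.43 and 6.67 FPKM in the Dim libraries 1 to 3. The groups overlapped, with 2 Dim libraries above all Bright libraries. The means were 4.30 ± 0.686 FPKM in Bright and 5.36 ± 1.34 FPKM in Dim (SD, n = 3 each). The log2 fold change was -0.25 ± 0.20 (SE), with a 95% interval from -0.69 to 0.20 and an adjusted p of 0.402. The authors' deposited table gave Utf1 a log2 ratio of -0.48 with a q-value of 0.548.

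Prdm14, a PR-domain zinc finger protein needed for primordial germ cells, was low in every library. The gene (ENSMUSG00000042414; GRCm38 chromosome 1, 13113457 to 13127163) measured 0.246, 0.0780 and 0.250 FPKM in the Bright libraries 1 to 3, against 0.174, 0.0976 and 0.125 FPKM in the Dim libraries 1 to 3. The groups overlapped, with the lowest value in Bright 2, and the values correspond to about 6 to 23 fragments per library. A difference was not detectable at this depth (exact two-sided permutation p = 0.4).

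**Figure D4:**
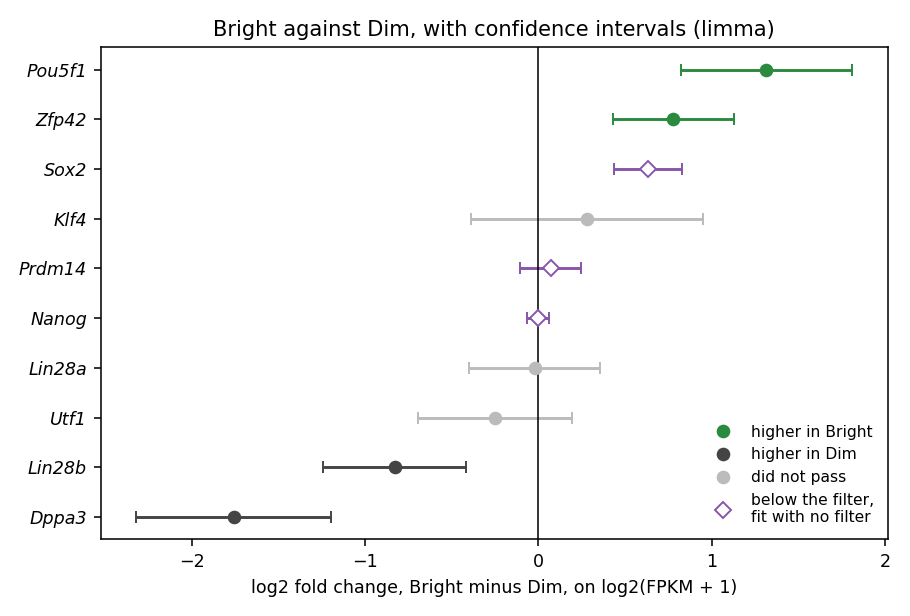
Log2 fold change of each pluripotency factor, Bright minus Dim on log2(FPKM + 1), with 95% intervals from limma. Filled circles are the 7 tested genes and open diamonds the 3 genes below the filter, taken from the fit with no filter. The intervals of Pou5f1 (0.82 to 1.81), Zfp42, Lin28b and Dppa3 (-2.32 to -1.20) exclude 0, as does that of Sox2 in the fit with no filter (0.44 to 0.83), and that of Lin28a (-0.40 to 0.36) spans it.

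Other genes of the pluripotency network were counted from lists of known factors. This list and those that follow were drawn up after earlier results of these data had been seen. In the main test, 12.0% of all genes tested passed the threshold with more in Bright, and 10.5% with more in Dim. Whether the counts of any list depart from these shares was not tested. Of 22 genes of a wider pluripotency network, 15 were tested, 7 were called up in Bright and 1 up in Dim. Dppa2, 1 of the 7, reached 1 FPKM only in Bright, so it entered the test through the group where it was higher. The median log2 fold change was 0.44 against -0.03 over all genes tested, and 0.36 against -0.01 without Bright 3. In the fit with no filter on low values, 6 of the 22 were called up in Bright and 2 up in Dim. The median there was 0.12, against 0.01 over all genes. Fgf4, Gbx2 and L1td1, which lay below the filter, had every Dim library above every Bright library. Tcl1, a coactivator of the AKT kinase, measured 72.6 ± 12.4 FPKM in Bright and 6.90 ± 1.86 FPKM in Dim (SD, n = 3 each; adjusted p 7.43e-05). Dppa4, a chromatin protein of early embryos, measured 33.8 ± 4.31 and 13.8 ± 1.59 FPKM (adjusted p 0.00097). Nr5a2, an orphan nuclear receptor that can stand in for OCT4 in reprogramming, measured 11.0 ± 1.67 and 4.35 ± 0.0684 FPKM (adjusted p 0.00138). Tbx3, a T-box factor of embryonic stem cells, measured 4.05 ± 1.14 and 1.65 ± 0.0654 FPKM (adjusted p 0.00941). These 4 genes were named for the largest fold changes among the called genes of the list. Their libraries did not overlap between the groups, as for 41.1% of all genes tested. The 4 genes stayed past the threshold with any library left out. Leaving out each library in turn gave 5 to 7 calls higher in Bright and 0 or 1 higher in Dim.

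Genes of formative and primed pluripotency, the later epiblast-like states, were mixed. Of 13 genes, 7 were tested, 1 was called up in Bright and 2 up in Dim, with a median log2 fold change of -0.25. Dnmt3b, a de novo DNA methyltransferase, measured 32.3 ± 5.67 FPKM in Bright and 63.1 ± 6.71 FPKM in Dim (SD, n = 3 each; adjusted p 0.00404), and Cdh2, which encodes N-cadherin, measured 4.93 ± 1.44 and 10.2 ± 1.91 FPKM (adjusted p 0.0147). Grhl2, an epithelial transcription factor, measured 8.20 ± 0.835 and 4.77 ± 0.694 FPKM (adjusted p 0.0156, and 0.0514 without Dim 2).

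Regulators that act on Pou5f1 in embryonic cells gave 1 call in each direction among 9 tested of 11, with a median log2 fold change of -0.38. Nr6a1 encodes GCNF, a nuclear receptor that represses Pou5f1 as embryonic cells differentiate. It measured 14.7, 10.8 and 13.0 FPKM in the Bright libraries 1 to 3, against 28.3, 18.9 and 22.3 FPKM in the Dim libraries 1 to 3. The groups did not overlap, with Dim above Bright. The adjusted p was 0.0156, rising to 0.0512 without Dim 3 and to 0.0685 with libraries scaled to the same sum. A link between the levels of Nr6a1 and Pou5f1 was not tested. Nr2c1, the orphan receptor TR2, measured 2.63 ± 0.114 FPKM in Bright and 1.38 ± 0.0764 FPKM in Dim (SD, n = 3 each; adjusted p 0.0146), a call lost without Dim 1, Dim 2 or Dim 3 (0.0508, 0.0505 and 0.0553).

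Among 10 proteins known to work with the factors, all tested, 1 was called up in Bright and 2 up in Dim, with a median log2 fold change of -0.19. Chd4, an ATPase of the NuRD chromatin complex, measured 235 ± 14.5 FPKM in Bright and 154 ± 15.6 FPKM in Dim (SD, n = 3 each; adjusted p 0.0213). Tet3, the methylcytosine oxidase of the zygote, measured 14.5, 6.53 and 9.15 FPKM in Bright and 28.9, 16.6 and 20.2 FPKM in Dim (adjusted p 0.0308). Yy2, a YY1-like zinc finger factor, measured 8.05 ± 0.730 and 12.1 ± 1.87 FPKM (adjusted p 0.0406). These calls depended on which libraries entered. That of Chd4 was lost without Bright 1, Dim 2 or Dim 3 (0.0789, 0.0883 and 0.104), that of Tet3 without Bright 2, Bright 3, Dim 1 or Dim 3 (0.0622, 0.0858, 0.0774 and 0.0799), and that of Yy2 with any library left out (0.058 to 0.123).

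Of 12 genes of let-7 processing, all tested, 2 were called up in Bright and 0 up in Dim, where 1 had an unadjusted p under 0.05, and the median log2 fold change was -0.10. Zcchc6, a terminal uridylyltransferase that acts on let-7 precursors, measured 5.81 ± 1.19 FPKM in Bright and 3.28 ± 0.674 FPKM in Dim (SD, n = 3 each; adjusted p 0.0351). Trim71, a ubiquitin ligase and RNA-binding protein that is a let-7 target itself, measured 59.3 ± 13.1 and 36.2 ± 4.23 FPKM (adjusted p 0.0293). In the fit with no filter on low values, 0 of the 12 genes were called (adjusted p 0.0773 for Zcchc6 and 0.0755 for Trim71). Scaling the libraries to the same sum also ended the Zcchc6 call (0.0653). Leaving out Bright 1, Bright 3, Dim 2 or Dim 3 ended the Zcchc6 call (0.0776, 0.087, 0.0983 and 0.126), and leaving out Bright 1, Bright 2, Dim 2 or Dim 3 that of Trim71 (0.0815, 0.0511, 0.0888 and 0.0646).

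Of 16 known let-7 targets, 14 were tested, 1 was called up in Bright and 2 up in Dim, with a median log2 fold change of -0.20. At an unadjusted p under 0.05 in limma there were 2 up in Bright and 6 up in Dim, against 2380 and 2370 of all 13416 genes tested. The same counts were 1 and 3 for the 9 regulators of Pou5f1 tested, and 2 and 4 for the 10 partners of the factors. With the replicate block, 2 and 6 of the let-7 targets were called. Ccnd2, a G1 cyclin, measured 94.6 ± 10.9 FPKM in Bright and 17.9 ± 3.45 FPKM in Dim (SD, n = 3 each; adjusted p 9.81e-05). Its paralog Ccnd1 measured 43.4 ± 4.99 and 68.2 ± 3.71 FPKM (adjusted p 0.0108), and their kinase partner Cdk6 measured 5.49 ± 2.05 and 18.0 ± 1.29 FPKM (adjusted p 0.00154). The 3 calls held with any library left out.

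Genes of germ cell specification gave 0 calls higher in Bright and 1 higher in Dim among 8 tested of 11, with a median log2 fold change of 0.03. In limma, 2 had an unadjusted p under 0.05 in each direction. The call was Kit, the receptor tyrosine kinase that marks differentiating spermatogonia, which measured 30.5, 17.2 and 23.9 FPKM in the Bright libraries 1 to 3, against 116, 93.8 and 102.2 FPKM in the Dim libraries 1 to 3. The groups did not overlap, and the adjusted p was 0.000394.

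The families of the 2 best-known factors were set beside them. Of the 16 other Kruppel-like factors, 11 were tested, 2 were called up in Bright and 1 up in Dim, with a median log2 fold change of 0.26. Klf13 measured 12.8 ± 1.52 FPKM in Bright and 7.31 ± 0.356 FPKM in Dim (SD, n = 3 each; adjusted p 0.00765), and this call held with any library left out. Klf7 measured 13.4 ± 3.04 and 7.29 ± 1.33 FPKM (adjusted p 0.0225), and Klf5, also a member of the wider network list, measured 1.57 ± 0.492 and 3.24 ± 0.997 FPKM (adjusted p 0.0441). Leaving out Bright 1, Bright 3, Dim 2 or Dim 3 ended the Klf7 call (0.0696, 0.0662, 0.0673 and 0.0533), and leaving out Bright 2, Bright 3, Dim 1 or Dim 3 that of Klf5 (0.106, 0.11, 0.112 and 0.0929). Klf2 and Klf6, chosen here after their values were seen, were highest in Bright 3 like Klf4, at 14.6 and 17.3 FPKM against 1.49 to 3.62 and 2.28 to 8.29 FPKM elsewhere.

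Of the 14 other POU factors, 5 were tested, with 1 called in each direction and a median log2 fold change of 0.06. Pou4f1, known from sensory neurons as BRN3A, moved opposite to Pou5f1. It measured 8.97, 9.11 and 6.91 FPKM in the Bright libraries 1 to 3, against 23.2, 22.8 and 19.0 FPKM in the Dim libraries 1 to 3, with no overlap and an adjusted p of 0.000998. Pou2f2, known from B cells as OCT2, measured 4.87 ± 0.941 FPKM in Bright and 2.75 ± 0.684 FPKM in Dim (SD, n = 3 each; adjusted p 0.0424), and it missed the threshold when Bright 1, Bright 3, Dim 2 or Dim 3 was left out (0.13, 0.0869, 0.106 and 0.152).

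**Figure D5:**
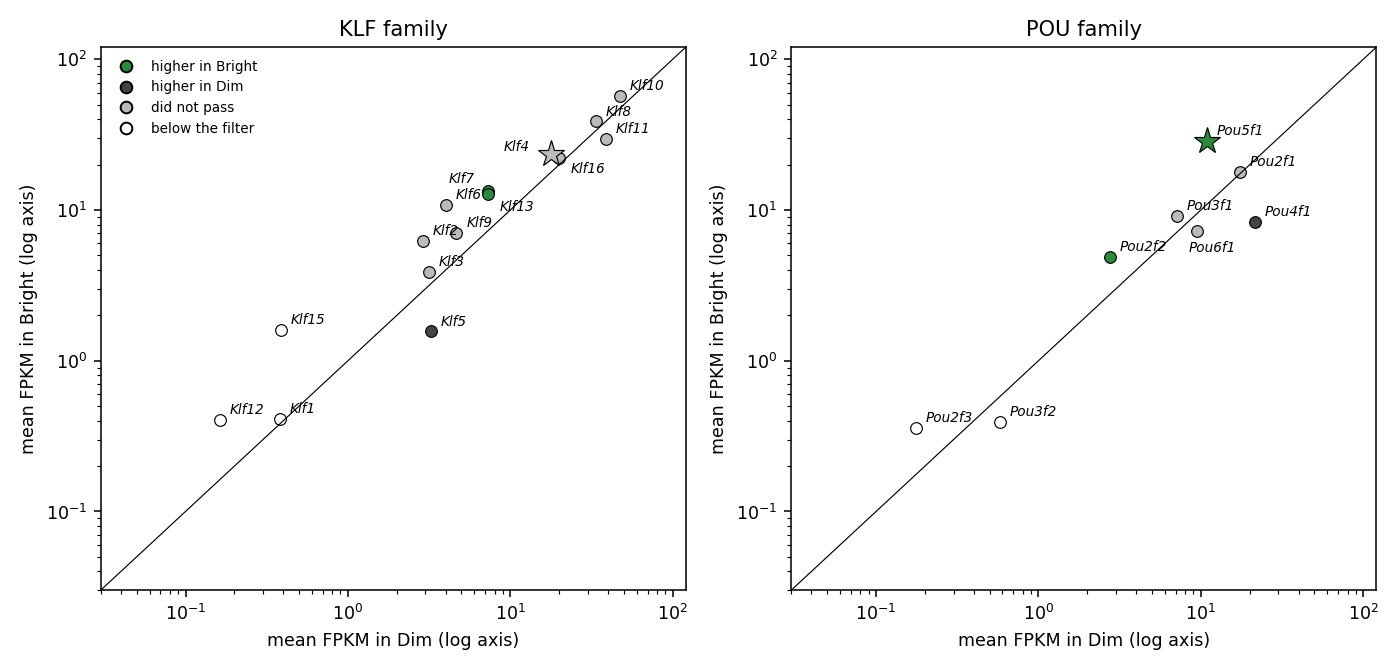
Mean FPKM in Bright (vertical, log axis) against mean FPKM in Dim (horizontal, log axis) for the Kruppel-like factors with Klf4 (left star) and the POU factors with Pou5f1 (right star), leaving out genes averaging under 0.2 FPKM. The line marks equal levels. Pou5f1 lies above it at 28.9 against 10.9 FPKM, and Pou4f1 below it.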

How the data were processed

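The deposited table holds FPKM per Ensembl gene for 6 libraries. Per the submitters' processing notes the authors used TopHat2 2.1.1 and Cufflinks 2.2.1 and named the build mm9, with no parameters. Comparison tables deposited by the authors give each gene a log2 ratio together with its p-value and q-value, whose settings are not given in the sources used here. Of 31584 identifiers found in GENCODE M21, 81.0% had coordinates identical to GRCm38, including 8 of the 10 factors (not Zfp42 and Lin28b), so the coordinates are treated as GRCm38. Library strand is not given in the sources used here.

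Values were used as log2(FPKM + 1), unscaled. Genes reaching 1 FPKM in 3 or more libraries were tested (13416). Bright and Dim were compared in limma 3.58.1 (R 4.3.3) with trend and robust moderation and the group as the only term, with Benjamini-Hochberg adjustment over all genes tested and a threshold of 0.05. The procedure was tested on simulated data, drawn independently from the means and SDs of the Dim libraries. Those data held no library like Bright 3, so they do not show how the test behaves with one. Factors below the filter had an exact two-sided permutation test. FPKM could not be turned back into whole counts, so fragment numbers are approximate and no counting interval is given. Alternatives changed the pseudocount, filter, scaling, moderation and replicate block and left out each library.

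The factors and the gene lists were chosen with earlier results of these data known. From each list, up to 4 called genes with the largest fold change were named, and for the 2 factors with the highest mean over all 6 libraries, Lin28a and Klf4, the 5 genes with the most similar profile. Klf4 came second through Bright 3, at 20.6 FPKM against 19.9 for Pou5f1, and 17.3 against 19.7 without Bright 3. An item that this rule would name is not reported here. Lists share some genes. Protein sequences planned for Lin28a and Lin28b were not used here. Promoters and microRNAs are from RefSeq (GRCm38.p6), and 3′ UTRs from GENCODE M21, with UTRs of similar length taken as 0.8 to 1.25 times the length.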

Additional observations from a re-analysis of the deposited data

How the results depend on the processing

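The 4 calls of Pou5f1, Zfp42, Lin28b and Dppa3 held under every alternative run, and the pluripotency factors called numbered 4, or 5 with no filter or with the filter of 0.1 FPKM, when Sox2 was added. With all libraries, the Sox2 log2 fold change was 0.63 without a test. It was 1.93 with a pseudocount of 0.1 and 1.00 with 0.5, which spread low values further by construction, and 0.63 with an adjusted p of 0.00856 with no filter and 0.0034 with the filter of 0.1 FPKM. With no filter and each library left out it was 0.63, 0.63, 0.64, 0.64, 0.61 and 0.65 without Bright 1, 2 and 3 and Dim 1, 2 and 3 (adjusted p 0.0167 to 0.0555, past 0.05 without Dim 2), an alternative chosen after seeing the data, as was the filter of 0.1 FPKM. Prdm14 was 0.28 with a pseudocount of 0.1.

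Lin28a, at -0.02, was 0.0405 with libraries scaled to the same sum, 0.0039 at the same upper quartile and 0.0406 after quantile normalization (adjusted p 0.901, 0.986 and 0.877), and -0.15 to 0.10 with each library left out. Klf4 was -0.085 to 0.53 with each library left out, negative without Bright 3. Scaling moved the median log2 fold change of all genes from -0.03 to between -0.04 and 0.02, and the share of calls higher in Bright from 53.3% to 61.3% with libraries scaled to the same sum and to 49.2% after quantile normalization (1550 against 1602 higher in Dim).

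With the replicate block, limma called 5453 genes (2607 higher in Bright, 2846 in Dim) against 3016 (1608 and 1408) without it, and 48 list genes against 26. The library numbers were not taken to pair the samples, since no label states that they do. The authors also deposited a comparison of each Bright library with the Dim library of the same number. Correlations of same-numbered deviations were 0.435, 0.511 and -0.194. Bright 1 with Dim 2 gave -0.547, and Bright 2 with Dim 1 gave -0.603. Bright 3 correlated best with Dim 1 (0.14), so not every sample correlated best with its own number. These correlations do not decide whether the numbers pair samples. The cause of this gain in calls was not tested. Leaving out each library gave 1957 to 2603 genes called, 1095 to 1418 higher in Bright and 849 to 1225 higher in Dim, and 15 to 23 list genes, where fewer samples entered the fit. The lowest gene counts were without Dim 2 (1957) and Dim 3 (1973), more than 1.5 times below. The named list and marker genes gave 414 results on the same side of the threshold and 82 that lost the call. At the approximate depths, Nanog rests on 0 to 4 fragments and Prdm14 on 6 to 23, which limits what can be seen of them.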
